A study of Mus musculus with 48 samples.

Results

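The genes described here encode NRDE2, the helicase MTREX and 8 proteins that join MTREX to RNA, to the cap or to the poly(A) tail in the nucleus. Taken by gene symbol through the GENCODE mouse annotation, *Nrde2*, *Mtrex*, *Zcchc8*, *Rbm7*, *Zfc3h1*, *Zc3h18*, *Zcchc7*, *Srrt*, *Ncbp1* and *Pabpn1* are 10 of the 55335 genes in the tables. The study used male hybrid 129xC57BL/6 mouse embryonic stem cells carrying Cre-ERT2, grown on gelatin in serum-LIF-2i medium. It measured RNA levels after loss or alteration of NRDE2, loss of MTREX and depletion of CCDC174, and translation by Ribo-seq after loss of NRDE2. RNA-seq covered 14 groups and Ribo-seq covered 2 groups, each with 2 libraries.

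In the first RNA-seq experiment, conditional *Nrde2* cells were untreated (WT) or treated with 100 nM 4-hydroxytamoxifen for 4 days (*Nrde2*-KO), and conditional *Mtrex* cells were untreated or treated for 3 days (*Mtrex*-KO). *Nrde2-d200* cells lack the start of the coding sequence and *Nrde2-D174R* cells carry a changed codon; each is 1 line derived from picked clones of the tagged conditional *Nrde2* line. In these 2 groups genotype and line cannot be told apart. In the paper's list of lines, a conditional *Mtrex* line is named as also carrying the tagged *Nrde2* allele. The RNA-seq labels name no tag for the *Nrde2* and *Mtrex* lines. Further libraries, called the second experiment here, compared *Nrde2*-KO with its WT, each with cycloheximide (CHX, 0.1 mg/ml, 4 h) or without. With and without CHX, they also compared cells with *Ccdc174* fused to FKBP12F36V before and after 24 h in 500 nM dTAG-13 (*Ccdc174-dTAG*). The labels name no experiment or batch. First and second experiment stand here for the RNA-seq libraries whose titles do not, or do, say untreated or CHX-treated. CHX stops translation elongation. Ribo-seq compared *Nrde2*-KO, treated for 4 days per the labels, with WT. In RNA-seq, WT is the conditional line without 4-hydroxytamoxifen or the *Ccdc174* fusion line without dTAG-13, with CHX where the compared group had it, and the labels of the Ribo-seq WT name no line. In the KO comparisons, loss of the gene cannot be told apart from 4-hydroxytamoxifen and Cre activity. Depletion of CCDC174 cannot be told apart from dTAG-13.

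MTREX unwinds RNA and feeds it to the nuclear RNA exosome. ZCCHC8 and RBM7 form the NEXT complex with it, ZFC3H1 and the poly(A)-binding protein PABPN1 belong to the PAXT connection, and ZCCHC7 belongs to a TRAMP-like complex. NCBP1 is the large subunit of the nuclear cap-binding complex, SRRT (ARS2) binds that complex, ZC3H18 links it to NEXT and PAXT, and NRDE2 binds MTREX.

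The RNA-seq libraries held 28683644 to 36272309 reads in genes, and the Ribo-seq libraries 3475051 to 5035940. Levels are normalized CPM, and fold changes are on the log2(CPM + 0.25) scale with limma's moderated test, an adjusted p below 0.01 being taken as passed. With 2 libraries a group, p-values measure only the spread between these samples, which may be technical. In bulk RNA, fewer cells of a type and less RNA per cell cannot be told apart.

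The targeted genes were examined first. *Nrde2* read 41.6 and 40.5 CPM in WT and 19.3 and 20.4 in *Nrde2*-KO of the first experiment. Both KO libraries were below both WT libraries. The log2 fold change was −1.04 (SE 0.09, adjusted p = 3.5e-07). In the second experiment *Nrde2* was at 53.6 and 52.2 CPM in WT and at 20 and 19.7 in *Nrde2*-KO. Again the groups did not overlap, with a log2 fold change of −1.40 (adjusted p = 1.6e-08). The fold change of the second experiment minus that of the first was −0.37 (adjusted p = 0.79). That test passed for 0% of 14889 genes and 0 of the 10 genes with limma. At an unadjusted p under 0.05 it gave 924 genes and 1 of the 10, edgeR passed 0 genes, and DESeq2 passed 3 genes and 0 of the 10. The other 9 genes had differences of −0.25 to 0.16.

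The deletion in *Nrde2* removes exons 5 and 6 (chr12:100143739-100144189 and chr12:100141893-100142298, GRCm38, minus strand), 857 of the 3718 bases of the main transcript, or 23.1%. The other exons are still counted, so the gene's reads check the deletion only in part. In a transcript that joins exon 4 to exon 7, the frame reaches a stop after 220 codons, where the full protein has 1172, and 7 exon junctions lie downstream. The end of exon 4 joined to exon 7 up to that stop, 79 bases after the junction, is shown because it holds the point where the altered frame ends, with the stop codon in capitals.
Nrde2 exon 4 to 7: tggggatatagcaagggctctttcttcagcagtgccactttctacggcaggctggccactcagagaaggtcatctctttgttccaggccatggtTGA

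*Mtrex* read 119 and 112 CPM in the untreated conditional line and 46.4 and 41.6 in *Mtrex*-KO. Both KO libraries were lower than both WT libraries, and *Mtrex* fell by 1.39 on the log2 scale (SE 0.09, adjusted p = 8.6e-10). Exon 7 (chr13:112913100-112913190, GRCm38, minus strand), which this deletion removes, holds 91 of 3689 bases, or 2.47%, so the gene's reads hardly check it directly. Joining exon 6 to exon 8 gives a stop after 231 codons, where the full protein has 1040, with 19 exon junctions downstream. The end of exon 6 joined to exon 8 up to the stop, 9 bases after the junction, is shown for the same purpose, with the stop codon in capitals.
Mtrex exon 6 to 8: gttatgactacagagagcgtggtgTAG

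**Figure D1:**
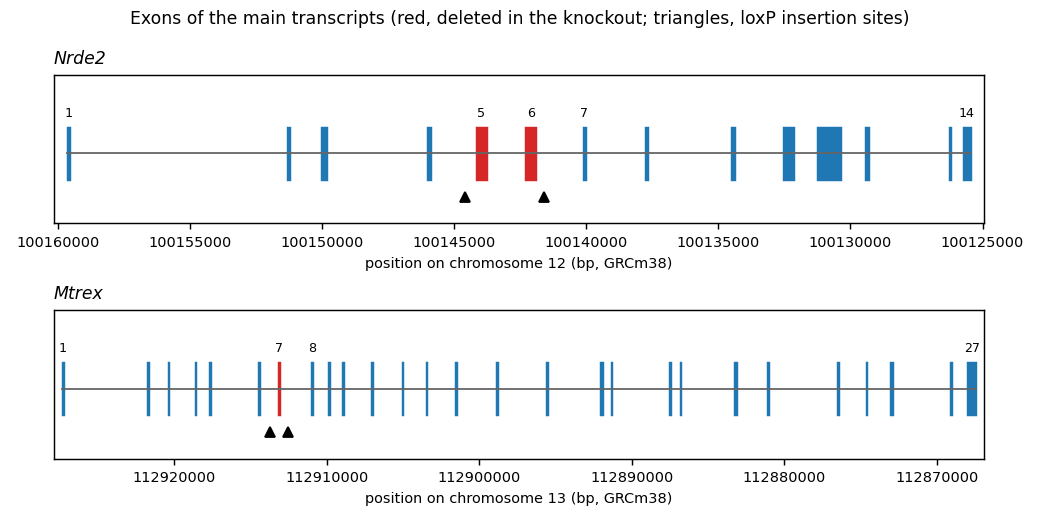
Exons of the main transcripts of *Nrde2* (chromosome 12) and *Mtrex* (chromosome 13) in GRCm38 coordinates, with deleted exons in red and loxP insertion sites as triangles. The deleted exons are exons 5 and 6 of *Nrde2* and exon 7 of *Mtrex*.

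The changed codon of *Nrde2-D174R* lies in exon 4 (chr12:100145929-100145931, GRCm38, minus strand). It is shown in capitals in the reference sequence to mark the position that was edited.
Nrde2 edited codon: gtcttcaggactGATaagaagccagat
*Nrde2* was at 43.2 and 40.8 CPM in *Nrde2-D174R*, overlapping WT. In *Nrde2-d200*, where 597 coding bases (16.1% of the transcript) are absent and the sequence resumes at codon 201 in exon 5, it was at 52.2 and 54 CPM. Both are above the WT libraries, and the log2 fold change was 0.37 (adjusted p = 0.011), which did not pass. The test passed under 5 other settings: with edgeR (adjusted p = 0.0091), with DESeq2 (0.0025), with a filter at 1 CPM (0.0099), with a term for replicate number (0.0091) and with the compared groups alone (0.0049).

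Across the 14 RNA-seq groups, *Nrde2* stood highest in the 4 groups with CHX (206 to 259 CPM), above each library without CHX (19.3 to 56). Below them, WT and dTAG cells of the second experiment and *Nrde2-d200* lay between 52.2 and 56 CPM and overlapped. *Nrde2-D174R* and the first WT, at 40.5 to 43.2, overlapped each other, as did the *Mtrex* WT and KO groups, at 32 to 39.6. The *Nrde2*-KO groups without CHX overlapped at the bottom. *Mtrex* stood highest in the second-experiment *Nrde2* WT (255 and 248 CPM) and lowest in the *Mtrex* WT and KO groups, which overlapped no neighbour. Whether the *Mtrex* WT line differed from the other lines was not tested, and line cannot be told apart from genotype there.

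**Figure D2:**
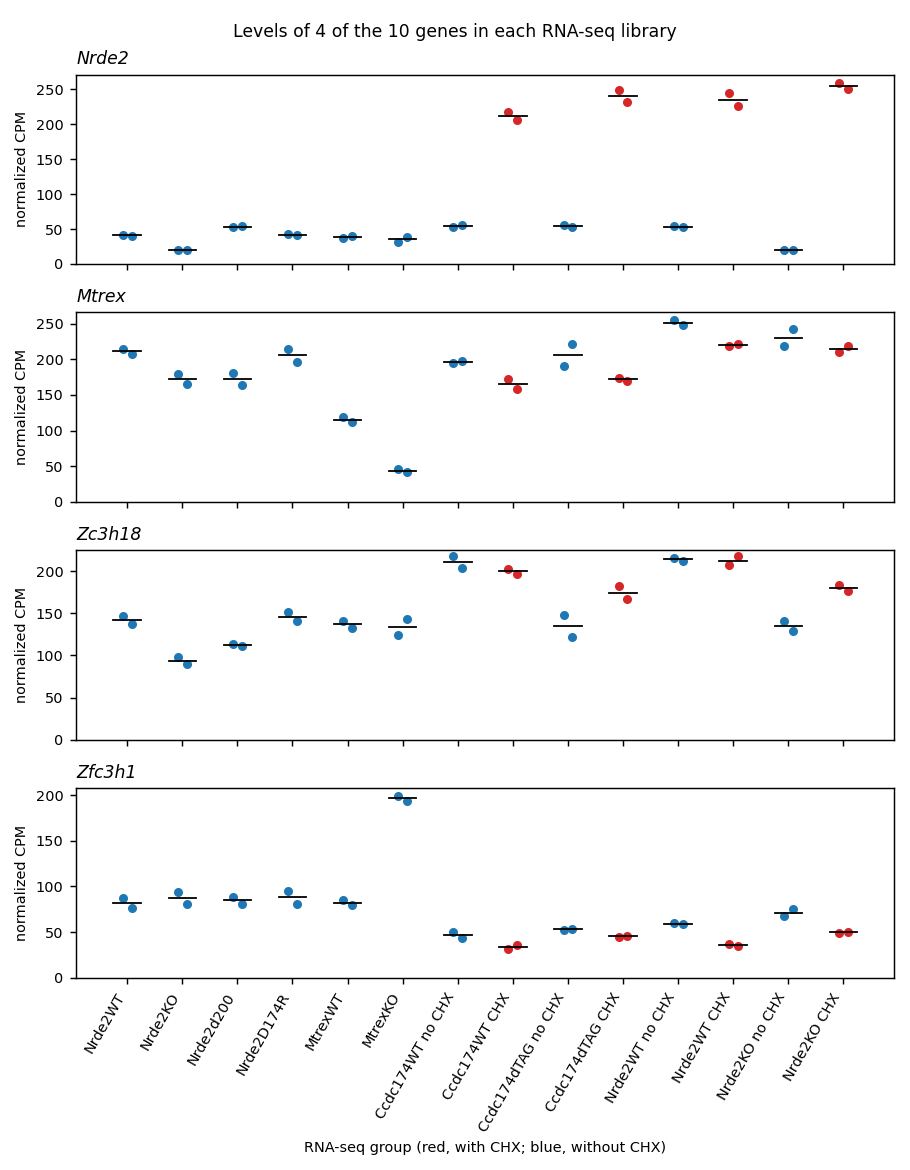
Normalized CPM of *Nrde2*, *Mtrex*, *Zc3h18* and *Zfc3h1* (vertical axes) in 14 RNA-seq groups (horizontal axis), with 1 point per library, a bar at the mean, red with CHX and blue without. *Nrde2* lies at 206 to 259 in the libraries with CHX and at 19.3 to 56 in the others, and *Zfc3h1* lies at 199 and 194 in *Mtrex*-KO.

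Per kilobase of exon, the mean levels in the first *Nrde2* WT ran from 45.1 CPM per kb for *Ncbp1*, 36.5 for *Srrt* and 33 for *Mtrex* through 18.8 for *Zcchc8*, 15.4 for *Zc3h18* and 14.2 for *Rbm7*. *Zfc3h1* had 10.4, *Nrde2* 9.79, *Pabpn1* 6 and *Zcchc7* 5.26. These lengths count the exon bases of all annotated transcripts of a gene, 9612 for *Zcchc7*, 3386 for *Ncbp1* and 5244 for *Srrt*. Their main transcripts have 2503, 3010 and 3024 bases, and an order by main transcript would differ at the top and the bottom. On 21.4% of its exon bases *Pabpn1* shares the strand with Gm20521, and the effect of that on its counts was not tested. In Ribo-seq of WT, per kilobase of coding sequence, *Pabpn1* had 68.1, *Srrt* 58.7 and *Ncbp1* 33.2, and *Zfc3h1* (4.39) and *Nrde2* (3.78) were lowest of the 10. The RNA-seq and Ribo-seq scales differ and their values are not compared.

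In *Nrde2*-KO of the first experiment, 2 of the 10 genes passed, both lower, where 18.2% of 14889 genes passed. They were the targeted gene *Nrde2* and *Zc3h18*, so the count includes a gene that the design altered. *Zc3h18* was at 147 and 137 CPM in WT and at 98.2 and 89.4 in KO, with both KO libraries below WT. It fell by 0.60 on the log2 scale (SE 0.10, adjusted p = 0.00021). Below the threshold, *Ncbp1* was at −0.30 (adjusted p = 0.011) and *Mtrex* at −0.29 (adjusted p = 0.025). Both passed with the compared groups alone (0.0035 and 0.0063), and *Ncbp1* also with DESeq2 (0.0037). The other 6 genes lay between −0.05 and 0.14. The median over the 10 genes was −0.03, against 0.00 over all genes. With scaling as deposited the share of passed genes that were higher moved from 1137 of 2716 to 1122 of 2018.

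The second experiment gave 2 of 10 genes, also the targeted gene *Nrde2* and *Zc3h18* and both lower, where 18.7% of 14889 genes passed. *Zc3h18* was at 216 and 212 CPM in WT and at 141 and 129 in KO. The groups did not overlap, and the log2 fold change was −0.66 (adjusted p = 6.7e-05). *Zfc3h1* was at 60.4 and 58.4 CPM in WT and at 67.6 and 75.1 in KO. Both KO libraries were higher, but the log2 fold change of 0.26 did not pass (adjusted p = 0.068). *Mtrex* was at −0.13, and the 6 genes not named lay between −0.15 and 0.13.

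*Nrde2-d200*, *Nrde2-D174R* and the first *Nrde2*-KO were compared with the same WT libraries, so their values are given side by side only. In *Nrde2-d200*, 0 of 10 genes passed with limma, where 7.49% of 14889 genes passed. At an unadjusted p under 0.05 there were 4 of the 10, and 4478 of the 14889 genes. With edgeR and DESeq2 1 of the 10 passed each time, where 7.56% and 9.53% of all genes passed. *Zc3h18* was at 114 and 111 CPM, both below WT, with a log2 fold change of −0.33 (adjusted p = 0.027), and passed only with the compared groups alone (0.0051). *Mtrex* (−0.29, adjusted p = 0.037) and *Ncbp1* (−0.27, adjusted p = 0.032) did not pass, and the 6 others lay between −0.09 and 0.10. Of all genes, 479 of 1115 passed genes were higher, and 447 of 780 with scaling as deposited. In *Nrde2-D174R*, 0 of 10 genes passed with limma, where 0.396% of 14889 genes passed. There 1 of the 10 was at an unadjusted p under 0.05, *Rbm7* at −0.25 (adjusted p = 0.14), as were 2622 of the 14889 genes. With edgeR and DESeq2 0 of the 10 passed, where 0.423% and 1.5% of all genes passed. The other 9 lay between −0.12 and 0.23. *Zc3h18* was at 151 and 141 CPM, overlapping WT. Whether *Nrde2-d200*, *Nrde2-D174R* and *Nrde2*-KO differ from one another was not tested.

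In *Mtrex*-KO, 5 of 10 genes passed, 2 higher and 3 lower, where 55.9% of 14889 genes passed. *Zfc3h1* was at 84.8 and 79.4 CPM in WT and at 199 and 194 in KO. Both KO libraries were above every other RNA-seq library, and *Zfc3h1* rose by 1.25 on the log2 scale (SE 0.11, adjusted p = 1.4e-08). The targeted gene *Mtrex* fell, as did *Ncbp1* and *Zcchc8*. *Ncbp1* was at 159 and 168 CPM in WT and at 115 and 122 in KO, without overlap, and its log2 fold change was −0.47 (adjusted p = 9.7e-05). For *Zcchc8*, WT libraries of 92.8 and 101 CPM stood above KO libraries of 72.2 and 82.3. Its log2 fold change was −0.33 (adjusted p = 0.0022).

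*Srrt* was at 214 and 244 CPM in *Mtrex* WT and at 264 and 302 in *Mtrex*-KO. The KO libraries were higher, with a log2 fold change of 0.31 (adjusted p = 0.0087), but with scaling as deposited its direction flipped to −0.09 (adjusted p = 0.55), and the median of all genes moved to −0.38 under that scaling. There *Nrde2* (−0.53, adjusted p = 0.0017) and *Zc3h18* (−0.43, adjusted p = 0.006) passed as lower, where the reported log2 fold changes were −0.14 (adjusted p = 0.20) and −0.04 (adjusted p = 0.75). *Rbm7*, *Zcchc7* and *Pabpn1* lay between 0.01 and 0.04. With scaling as deposited, 2437 of 8871 passed genes were higher, against 4245 of 8323. *Srrt* did not pass without WT replicate 1 (0.21, adjusted p = 0.11) or KO replicate 2 (0.21, adjusted p = 0.084), with edgeR (0.012), with no filter (0.018) or with the compared groups alone (0.096). *Zcchc8* did not pass without WT replicate 2 (−0.27, adjusted p = 0.034), without KO replicate 1 (−0.23, adjusted p = 0.033) or with the compared groups alone (0.068), and neither did *Ncbp1* with the compared groups alone (0.015).

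In *Ccdc174-dTAG* without CHX, 1 of 10 genes passed, where 5.59% of 14889 genes passed. That gene was *Zc3h18*, at 218 and 204 CPM before and 148 and 122 after dTAG-13. Both treated libraries were lower, and *Zc3h18* fell by 0.65 on the log2 scale (SE 0.10, adjusted p = 0.00021). The other 9 genes had log2 fold changes of −0.08 to 0.23. *Nrde2* was at 53.1 and 56 CPM before and at 55.6 and 53.5 after, overlapping.

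**Figure D3:**
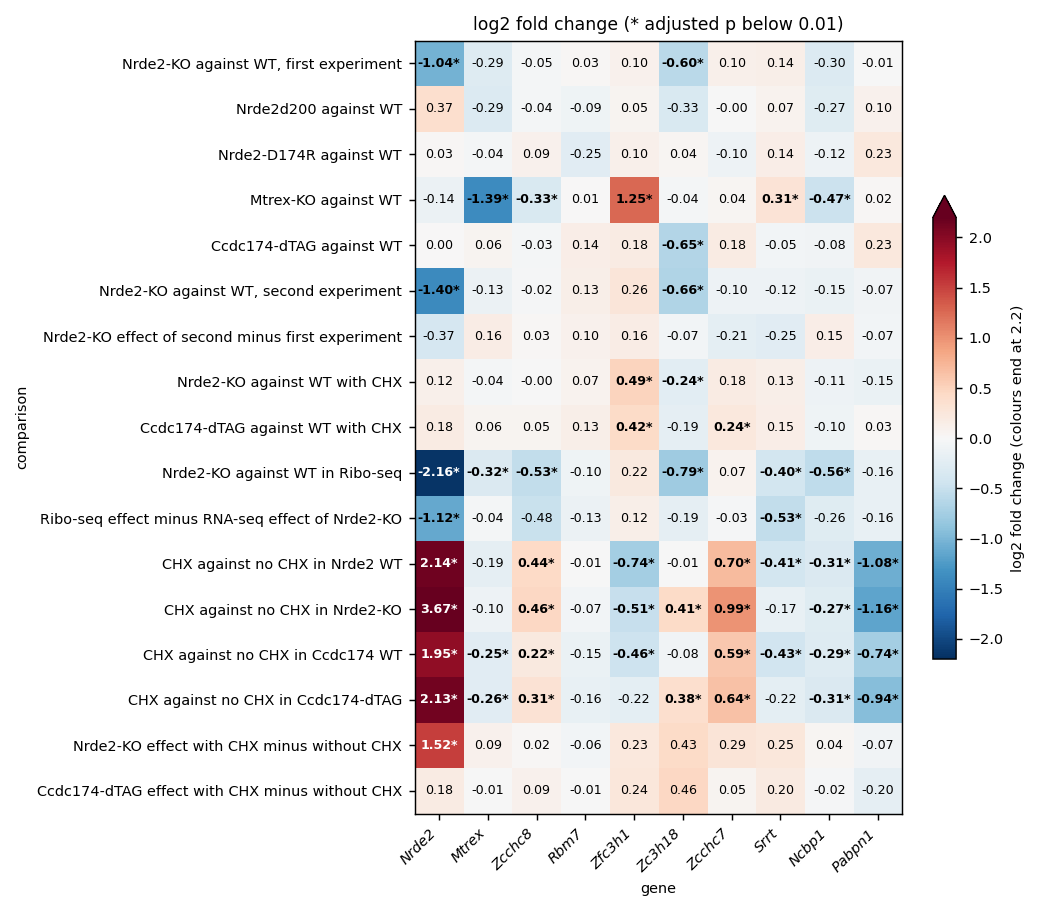
Heat map of log2 fold changes of the 10 genes (horizontal axis) in 17 comparisons (vertical axis), each from 2 libraries a group, with a star where the adjusted p was below 0.01 and colours ending at 2.2. *Zc3h18* is at −0.60 and −0.66 in the *Nrde2*-KO RNA-seq experiments and −0.65 in *Ccdc174-dTAG*, all without CHX, at −0.24 in *Nrde2*-KO with CHX, and at −0.04 in *Mtrex*-KO (−0.43 with scaling as deposited). *Nrde2* is at 1.95 to 3.67 in CHX against no CHX, and *Srrt* in *Mtrex*-KO, starred at 0.31, is at −0.09 with scaling as deposited.

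CHX against no CHX passed for 7 of 10 genes in *Nrde2* WT, where 47.5% of 15133 genes passed, and for 7 of 10 in *Nrde2*-KO, where 48.9% passed. It passed for 8 of 10 in *Ccdc174* WT and 7 of 10 in *Ccdc174-dTAG*, where 49.5% and 50.4% of genes passed. With scaling as deposited 5, 6, 3 and 5 of the 10 passed in the same order, where 45.4%, 48.4%, 47.7% and 49.5% of all genes passed. Whether the 10 genes differ from other genes was not tested. *Nrde2* was at 53.6 and 52.2 CPM without and at 244 and 226 with CHX in WT. In *Nrde2*-KO it was at 20 and 19.7 without and at 259 and 250 with CHX. Every library with CHX was above every library without. *Nrde2* rose by 2.14 on the log2 scale in WT (4.42-fold, SE 0.06, adjusted p = 7.1e-12) and by 3.67 in KO (12.7-fold, adjusted p = 2e-14). In *Ccdc174* WT it went from 53.1 and 56 to 218 and 206 CPM, a log2 fold change of 1.95 (adjusted p = 1.4e-11). After dTAG-13 it went from 55.6 and 53.5 to 249 and 231 CPM, a log2 fold change of 2.13 (adjusted p = 6.2e-12).

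The effect of *Nrde2*-KO with CHX minus that without CHX was 1.52 for *Nrde2* (SE 0.09, adjusted p = 9.5e-07). It was the 1 gene of the 10 that passed this test, where 0.515% of 15133 genes passed. With CHX, *Nrde2* did not differ past the threshold between KO and WT (log2 fold change 0.12, adjusted p = 0.12), so its level does not check the KO label of those libraries. The deposited counts are per gene, and reads of the deleted exons cannot be told from reads of the others. *Zc3h18* (0.43, adjusted p = 0.084) and *Zfc3h1* (0.23, adjusted p = 0.40) did not pass, and the 7 others lay between −0.07 and 0.29. For *Ccdc174-dTAG* the same test passed for 0 of 10 genes with limma and for 0.251% of 15133 genes. At an unadjusted p under 0.05 it gave 1 of the 10, *Zc3h18* at 0.46 (adjusted p = 0.11), and 1464 of the 15133 genes. With edgeR and DESeq2 it passed for 0 of the 10, and for 0.244% and 0.727% of all genes. The other 9 lay between −0.20 and 0.24.

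Of the other genes, *Zcchc7* rose with CHX in all 4 settings of genotype and treatment, by 0.59 to 0.99 on the log2 scale (adjusted p = 9.3e-05 to 6.4e-07). It lay at 72.9 to 89.8 CPM in the 8 libraries with CHX and at 39 to 59.3 in the 20 without. *Zcchc8* rose by 0.44 and 0.46 in *Nrde2* WT and KO and by 0.22 and 0.31 in *Ccdc174* cells before and after dTAG-13 (adjusted p = 1.8e-05, 1.1e-05, 0.0045 and 0.00034). *Zc3h18* went from 141 and 129 CPM to 184 and 176 in *Nrde2*-KO (0.41, adjusted p = 0.00057) and from 148 and 122 to 182 and 167 in *Ccdc174-dTAG* (0.38, adjusted p = 0.0012), the CHX libraries being higher in both. In *Nrde2* WT (−0.01) and *Ccdc174* WT (−0.08) it did not pass. *Pabpn1* fell in each of the 4, with log2 fold changes of −1.08, −1.16, −0.74 and −0.94 in that order (adjusted p = 0.00049, 0.00026, 0.0072 and 0.0013), and within each pair of groups both CHX libraries were the lower ones. *Zfc3h1* fell in *Nrde2* WT (−0.74, adjusted p = 3.6e-06), in KO (−0.51, adjusted p = 0.00011) and in *Ccdc174* WT (−0.46, adjusted p = 0.00026), again without overlap. After dTAG-13 it was at −0.22 without passing (adjusted p = 0.035), and *Rbm7*, at −0.16 to −0.01, did not pass in any of the 4.

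*Ncbp1* had −0.27 to −0.31 (adjusted p = 0.0026 to 0.0061) and passed in each of the 4, but in none with scaling as deposited (−0.06 to −0.10). For *Srrt* the test passed in the WT of *Nrde2* (−0.41, adjusted p = 0.00042) and of *Ccdc174* (−0.43, adjusted p = 0.00029). *Srrt* in *Nrde2*-KO (−0.17, adjusted p = 0.081) did not pass. For *Mtrex* the test did not pass in *Nrde2* WT (−0.19, adjusted p = 0.034) or KO (−0.10, adjusted p = 0.24), but passed in *Ccdc174* cells before (−0.25, adjusted p = 0.0093) and after dTAG-13 (−0.26, adjusted p = 0.0074). With scaling as deposited these became −0.20 and −0.19 for *Srrt* and −0.02 and −0.02 for *Mtrex*, and did not pass. That scaling put the median of all genes at 0.20, 0.20, 0.21 and 0.24. Under it, passed genes that were higher went from 3795 of 7190 to 5234 of 6873 in *Nrde2* WT and from 3987 of 7393 to 5300 of 7326 in *Nrde2*-KO. In *Ccdc174* cells they went from 3849 of 7490 to 5447 of 7211 before dTAG-13, and after it from 3981 of 7624 to 5663 of 7495.

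Several of these calls were lost when 1 library was left out, which also leaves a smaller design. In *Nrde2* WT, *Pabpn1* did not pass without no-CHX replicate 2 (−0.83, adjusted p = 0.011), nor *Ncbp1* without that library (−0.27, adjusted p = 0.028) or CHX replicate 1 (−0.29, adjusted p = 0.025). In *Nrde2*-KO, *Ncbp1* did not pass without no-CHX replicate 2 (−0.19, adjusted p = 0.075), CHX replicate 1 (−0.23, adjusted p = 0.059) or CHX replicate 2 (−0.31, adjusted p = 0.015), with no filter (0.017) or with the compared groups alone (0.018). In *Ccdc174* WT, *Zcchc8* did not pass without no-CHX replicate 1 (0.20, adjusted p = 0.04) or 2 (0.25, 0.012) or CHX replicate 1 (0.20, 0.042) or 2 (0.25, 0.014), nor did *Mtrex* without the same 4 libraries (−0.26, −0.24, −0.30 and −0.19, adjusted p = 0.033, 0.048, 0.013 and 0.091). There *Ncbp1* did not pass without no-CHX replicate 1 (−0.21, adjusted p = 0.063) or CHX replicate 2 (−0.22, 0.062), and *Pabpn1* without no-CHX replicate 1 (−0.67, 0.048) or 2 (−0.81, 0.02) or CHX replicate 2 (−0.37, 0.15). *Pabpn1* in *Ccdc174* WT was also lost with scaling as deposited (−0.51, adjusted p = 0.039), no filter (0.028), edgeR (0.015) and the compared groups alone (0.015), and *Zfc3h1* with scaling as deposited (−0.23, adjusted p = 0.035). *Mtrex* there was lost with no filter (adjusted p = 0.025) and edgeR (0.018), *Zcchc8* with the compared groups alone (0.011) and *Ncbp1* with no filter (0.013).

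In *Ccdc174-dTAG*, *Zc3h18* did not pass without no-CHX replicate 2 (0.24, adjusted p = 0.021) or CHX replicate 1 (0.31, 0.021), and *Pabpn1* without no-CHX replicate 1 (−0.77, 0.018) or CHX replicate 2 (−0.81, 0.019). Without no-CHX replicate 2, CHX replicate 1 or CHX replicate 2, *Mtrex* (−0.15, −0.28 and −0.24, adjusted p = 0.11, 0.026 and 0.051) and *Ncbp1* (−0.28, −0.34 and −0.28, adjusted p = 0.02, 0.01 and 0.027) did not pass, while *Srrt* (−0.22) passed without no-CHX replicate 2 (−0.33, adjusted p = 0.0048) and with DESeq2 (−0.25, adjusted p = 0.0066). *Mtrex* was also lost with no filter (adjusted p = 0.021), edgeR (0.017) and the compared groups alone (0.038), and *Zc3h18* with the compared groups alone (0.013).

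With CHX in both groups, 2 of 10 genes passed between *Nrde2*-KO and WT, 1 higher and 1 lower, where 27.8% of 15476 genes passed. *Zfc3h1* was at 36.5 and 34.3 CPM in WT and at 49.5 and 50.1 in KO. The KO libraries were the higher ones, and it rose by 0.49 (SE 0.07, adjusted p = 0.00028). *Zc3h18* was at 207 and 218 CPM in WT and at 184 and 176 in KO. Both KO libraries were lower, with a log2 fold change of −0.24 (adjusted p = 0.0057). This call was lost with no filter (adjusted p = 0.029), and without WT replicate 2 (−0.20, adjusted p = 0.039), KO replicate 1 (−0.27, adjusted p = 0.022) or KO replicate 2 (−0.21, adjusted p = 0.053). *Zcchc7* was at 0.18 and did not pass (adjusted p = 0.012), but did with scaling as deposited (0.21, adjusted p = 0.0068), and the 7 others lay between −0.15 and 0.13.

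For *Ccdc174-dTAG* against WT with CHX, 2 of 10 genes passed, both higher, where 9.05% of 15476 genes passed. *Zfc3h1* was at 31.8 and 36 CPM before and 44.6 and 46.2 after dTAG-13, without overlap, with a log2 fold change of 0.42 (adjusted p = 0.0022). *Zcchc7* was at 73.3 and 72.9 CPM before and 84.3 and 88.2 after. Those groups did not overlap either, and the log2 fold change was 0.24 (adjusted p = 0.0069). *Zfc3h1* did not pass with no filter (adjusted p = 0.022), without WT replicate 1 (0.33, adjusted p = 0.018), or without dTAG replicate 1 (0.45, adjusted p = 0.013) or 2 (0.40, adjusted p = 0.026). *Zcchc7* did not pass with no filter (adjusted p = 0.027), with a term for replicate number (0.01), with the compared groups alone (0.015), without WT replicate 1 (0.24, adjusted p = 0.034) or 2 (0.23, adjusted p = 0.032), or without dTAG replicate 1 (0.27, adjusted p = 0.026) or 2 (0.21, adjusted p = 0.078). *Zc3h18* was at 202 and 197 CPM before and 182 and 167 after, a log2 fold change of −0.19 that did not pass (adjusted p = 0.03), and the 7 others lay between −0.10 and 0.18.

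In Ribo-seq, 6 of 10 genes passed between *Nrde2*-KO and WT, all lower, where 25.2% of 13857 genes passed. The median over the 10 was −0.36, against 0.00 over all genes. The count and the median include the targeted gene *Nrde2*. *Nrde2* was at 12.3 and 14.3 CPM in WT and at 2.34 and 3.25 in KO. Neither KO library reached the WT level, and *Nrde2* fell by 2.16 on the log2 scale (SE 0.22, adjusted p = 3.4e-07). *Zc3h18* was at 56.9 and 65.8 CPM in WT and at 39.9 and 31.2 in KO. Here too the groups did not overlap, and the log2 fold change was −0.79 (adjusted p = 1.8e-05). *Ncbp1* (76.9 to 80.6 CPM in WT, 51.2 to 55.4 in KO) had −0.56 (adjusted p = 4.6e-05). *Zcchc8* (52.8 to 57.8 in WT, 36.3 to 39.9 in KO) had −0.53 (adjusted p = 0.00023). For *Srrt* (152 to 156 in WT, 115 to 119 in KO) the log2 fold change was −0.40 (adjusted p = 0.00038). *Mtrex*, at 85 to 85.7 CPM in WT and 64.7 to 71.7 in KO, had −0.32 (adjusted p = 0.0057). In each of these 4 genes no KO library reached WT. The other 4 genes lay between −0.16 and 0.22.

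Scaling as deposited put the median of all genes in Ribo-seq at 0.15 and left *Nrde2* and *Zc3h18* as the 2 that passed. *Ncbp1* then had −0.41 (adjusted p = 0.032), *Zcchc8* −0.38 (0.055), *Srrt* −0.25 (0.21) and *Mtrex* −0.17 (0.42). Of all passed genes, 1525 of 3491 were higher, and 1851 of 2679 with scaling as deposited. *Mtrex* also did not pass with no filter (0.039), with DESeq2 (0.061), or without WT replicate 1 (−0.32, adjusted p = 0.014), WT replicate 2 (−0.33, adjusted p = 0.01) or KO replicate 1 (−0.25, adjusted p = 0.075), and *Pabpn1* (−0.16) passed without KO replicate 1 (−0.37, adjusted p = 0.0075).

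The Ribo-seq effect of *Nrde2*-KO minus its first-experiment RNA-seq effect passed for 2 of 10 genes, both lower, where 6.94% of 12788 genes passed. Assay and experiment cannot be told apart in this difference. For *Nrde2* it was −1.12 (SE 0.22, adjusted p = 0.0042), and for *Srrt* −0.53 (SE 0.10, adjusted p = 0.0028). *Srrt* RNA was at 187 and 195 CPM in WT and at 204 and 217 in KO, where the KO libraries were the higher ones but the test did not pass. *Zcchc8* had −0.48 (adjusted p = 0.012), and passed with edgeR (0.0042), DESeq2 (0.003) and a pseudocount of 1 (0.0099), and the 7 others lay between −0.26 and 0.12. Neither *Nrde2* (−1.04, adjusted p = 0.018) nor *Srrt* (−0.44, adjusted p = 0.074) passed with scaling as deposited, where 390 of 435 passed genes were higher against 561 of 888, nor with the second-experiment RNA-seq (−0.76, adjusted p = 0.039, and −0.28, adjusted p = 0.11). *Nrde2* did not pass without RNA WT replicate 1 (−1.14, adjusted p = 0.018) or 2 (−1.11, 0.017), RNA KO replicate 1 (−1.17, 0.013) or 2 (−1.08, 0.017), or Ribo-seq WT replicate 1 (−1.23, 0.011) or 2 (−1.02, 0.021). *Srrt* did not pass without RNA WT replicate 1 (−0.51, 0.014), RNA KO replicate 2 (−0.49, 0.013), Ribo-seq WT replicate 1 (−0.55, 0.01) or 2 (−0.51, 0.012), or Ribo-seq KO replicate 2 (−0.51, 0.011).

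Related genes were examined as 4 lists: 20 other cofactors of nuclear RNA decay, 11 subunits of the RNA exosome (10 tested), 6 cytoplasmic decay factors and 11 poly(A) and cap factors. In *Nrde2*-KO of the first experiment 0, 1, 1 and 3 of them passed in that order, all lower, where 18.2% of all genes passed. *Skiv2l*, the helicase of the cytoplasmic SKI complex, was at 50.1 and 54.4 CPM in WT and at 27.9 and 25.6 in KO, and fell by 0.96 (adjusted p = 1.5e-05). *Cpsf1*, a subunit of the cleavage and polyadenylation factor, was at 143 and 136 CPM in WT and at 69.3 and 70.6 in KO, and fell by 0.99 (adjusted p = 2.3e-07). In both cases no KO library overlapped WT. The list medians were −0.01, −0.15, −0.13 and 0.08, against 0.00 over all genes. In the second experiment 1, 1, 1 and 4 passed (18.7% of all genes), 1 cofactor and 1 poly(A) or cap factor being higher and the others lower. *Skiv2l* was at −1.16 (adjusted p = 1.8e-06), and *Cpsf1* went from 150 and 157 CPM to 79.3 and 73.2 (adjusted p = 1.8e-07). *Nrde2-d200* had 0, 1, 1 and 1 passed genes (7.49% of all genes), all lower, with *Skiv2l* at −0.81 (adjusted p = 0.00025) and *Cpsf1* at −0.76 (adjusted p = 1.2e-05). In *Nrde2-D174R* 0 genes of the lists passed with limma (0.396% of all genes). At an unadjusted p under 0.05 there were 5, 3, 3 and 0 genes of the lists, and 2622 of all 14889 genes.

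*Ccdc174-dTAG* without CHX had 0, 0, 1 and 2 passed genes, all lower, where 5.59% of all genes passed. *Skiv2l* was at 58.1 and 50.8 CPM before and 28.1 and 21 after dTAG-13, without overlap, and fell by 1.15 (adjusted p = 4.3e-06), and *Cpsf1* fell by 1.06 (adjusted p = 1.8e-07). With CHX, *Nrde2*-KO had 2 higher and 2 lower cofactors and 0, 0 and 0 higher against 2, 2 and 3 lower in the other lists, and *Ccdc174-dTAG* had 1, 0, 2 and 2 passed genes, the cofactor being higher, where 27.8% and 9.05% of all genes passed. With CHX in both groups *Skiv2l* went from 51.5 and 52.5 CPM in WT to 28.1 and 26 in *Nrde2*-KO (−0.94, adjusted p = 9.6e-06), and from 49 and 45.2 to 24.5 and 21.5 with dTAG-13 (−1.03, adjusted p = 2e-05). *Cpsf1* went from 130 and 136 to 76.5 and 78.5 (−0.78, adjusted p = 1.9e-06) and from 116 and 114 to 75.2 and 71.6 (−0.65, adjusted p = 2.2e-05). None of these groups overlapped. In Ribo-seq 2, 2, 2 and 5 passed, all lower, where 25.2% of all genes passed, with medians of −0.17, −0.08, −0.16 and −0.29. *Skiv2l* went from 40.4 and 39.1 CPM to 11.7 and 8.98 (−1.93, adjusted p = 2.6e-09) and *Cpsf1* from 106 and 111 to 32.4 and 33.8 (−1.71, adjusted p = 3.8e-11). The Ribo-seq effect minus the RNA-seq effect passed for 1, 0, 1 and 3 genes, all lower, and for 6.94% of all genes, *Skiv2l* at −0.97 (adjusted p = 0.0025) and *Cpsf1* at −0.71 (adjusted p = 0.00095) among them.

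In *Mtrex*-KO the lists had 2, 0, 1 and 3 higher genes and 5, 5, 2 and 4 lower ones, where 55.9% of all genes passed, with medians of −0.07, −0.35, 0.12 and −0.17. *Exosc7* was at 48.6 and 52.8 CPM in WT and at 20.8 and 22.2 in KO, and fell by 1.23 (adjusted p = 7.2e-09). *Exosc8* was at 74.8 and 81.6 CPM in WT and at 34.7 and 39.8 in KO, and fell by 1.07 (adjusted p = 1.8e-08). Neither gene's groups overlapped. With CHX against none, higher genes numbered 1, 1, 3 and 0 in *Nrde2* WT, 3, 1, 1 and 0 in *Nrde2*-KO, and 0, 0, 1 and 0 before and 1, 0, 1 and 0 after dTAG-13. Lower genes numbered 6, 1, 1 and 7, then 9, 2, 1 and 5, then 8, 4, 1 and 6, and then 10, 5, 1 and 7, where 47.5%, 48.9%, 49.5% and 50.4% of all genes passed. *Nudt21*, a cleavage factor subunit, had −1.40, −1.58, −1.74 and −1.80 in these groups (adjusted p = 7.5e-08, 2e-08, 7.4e-09 and 5.6e-09). It lay at 40.6 to 62.8 CPM without and 11.5 to 21 with CHX, and the non-canonical poly(A) polymerase gene *Tent4a* went from 54.4 and 50.9 to 25.2 and 26 in *Nrde2* WT (−1.04, adjusted p = 3e-08). In the other tests of differences 0 list genes passed with limma. At an unadjusted p under 0.05 there were 2, 0, 0 and 0 genes for the second minus the first experiment, 4, 1, 0 and 2 for *Nrde2*-KO with CHX minus without, and 1, 1, 0 and 1 for *Ccdc174-dTAG*. Of all genes, 924 of 14889, 2244 of 15133 and 1464 of 15133 were under that p in these 3 tests, in the same order. The lists were tested with limma alone.

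Levels over the 28 RNA-seq libraries were also set beside those of 10410 genes, the libraries sharing lines, treatments and experiments. The genes nearest to *Nrde2* were *Uimc1* (Pearson r = 0.964), *Zfp984* (0.960) and *Gm8935* (0.959), with r of 0.781, 0.772 and 0.728 over the 20 libraries without CHX. Nearest to *Mtrex* were *Zfp141* (0.956), *Dcaf1* (0.921) and *Arhgef39* (0.916), with 0.957, 0.952 and 0.928 without CHX. Leaving out CHX keeps the conditional *Mtrex* line, where *Mtrex* lay at 41.6 to 119 CPM against 159 or more elsewhere. It also keeps *Mtrex*-KO, where *Zfc3h1* was at 199 and 194 CPM against at most 94.8 elsewhere. How far any r rests on few libraries was not tested. For *Zcchc7* the nearest gene was *Zfp930*, with r of 0.959 over the 28 libraries and 0.666 without CHX. For the others, with r over all libraries and then without CHX, they were *Hist1h1a* for *Zcchc8* (0.963 and 0.884), *Atg5* for *Rbm7* (0.817 and 0.858), *Lnpep* for *Zfc3h1* (0.967 and 0.961) and *Sart1* for *Zc3h18* (0.950 and 0.951). *Cdipt* was nearest to *Srrt* (0.897 and 0.892), *Fam49b* to *Ncbp1* (0.927 and 0.863) and *Cxxc5* to *Pabpn1* (0.937 and 0.924).

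From the annotation, the 13 introns of *Nrde2* had on average 6.92 of 9 bases matching the 5′ splice site consensus, 1 of them at most 5. *Mtrex* had 6.81 over 26 introns, *Zc3h18* 6.61 over 18 and *Zfc3h1* 6.41 over 34, with 1, 2 and 5 introns at most 5. *Ncbp1* had 6.27 over 22, *Srrt* 6.11 over 19 and *Zcchc8* 5.77 over 13, with 5, 6 and 4 such introns. *Zcchc7* had 6.62 over 8, and *Rbm7* and *Pabpn1* 6.5 and 6.25 over 4 each, with 1, 1 and 0 such introns. The mean over 188823 introns was 6.4, with 16.7% at most 5. All introns, whatever their kind, were scored against the same consensus. Intron 1 of *Zcchc8*, at 2 of 9, starts with AT and not GT, so a low score need not mean a weak site. Annotated nonsense-mediated decay transcripts numbered 5 of 18 for *Srrt*, 3 of 9 for *Zcchc8*, 2 of 9 for *Zcchc7*, 1 of 4 for *Rbm7* and 1 of 9 for *Pabpn1*, and none for the other 5 genes, *Nrde2* included. *Zcchc8* and *Zc3h18* had 1 and 2 upstream ATG codons in the 5′ UTR of the main transcript and 7 other genes had 0, where 49.6% of 21888 transcripts had at least 1. The main transcript of *Pabpn1* has a 5′ UTR of 1 base and cannot hold one. Whether such features bear on the changes was not tested.

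Lists of cell type markers were read in the same libraries, and their part in the results was not tested. All 10 stem cell markers were above 0 in each library, with sums of 3070 to 6591 CPM in RNA-seq (3070 to 4046 with CHX) and 2473 to 3128 in Ribo-seq. With CHX against none, 5, 7, 7 and 8 of 10 stem cell genes passed as lower, and 1 each time as higher. The order is *Nrde2* WT, *Nrde2*-KO, *Ccdc174* WT and *Ccdc174-dTAG*. Higher were 1, 2, 2 and 1 of 5 tested primitive endoderm, 2 of 3 trophectoderm each time, and 1, 1, 2 and 1 of 4 fibroblast genes. Of 8 tested 2-cell-like genes 0, 2, 0 and 0 passed as lower. In these comparisons 47.5%, 48.9%, 49.5% and 50.4% of all genes passed. Of the 2-cell-like list 9 of 10 genes were matched. Their sum was 3.52 and 2.65 CPM in the first WT and 38.8 and 25.9 in *Nrde2*-KO, where 8 of 9 passed as higher. In the second experiment it was 7.43 and 7.74 in WT and 117 and 111 in KO, where 9 passed. It was 15.5 and 4.99 in *Mtrex* WT and 333 and 110 in *Mtrex*-KO, where 9 passed, and *Zscan4d*, the most abundant there, had 108 and 37.5 CPM. *Nrde2-d200* had 16.3 and 21.1 (3 passed), *Nrde2-D174R* 2.2 and 3.78, and Ribo-seq 0.13 and 0.667 in WT and 1.44 and 1.43 in KO, with 4 to 8 genes at 0. With CHX the sums were 5.78 and 5.63 in *Nrde2* WT and 66.6 and 59.9 in *Nrde2*-KO, where 7 of 7 tested genes passed. In *Ccdc174* cells without CHX they were 3.36 and 6.06 before and 3.51 and 9.05 after dTAG-13. Of all genes, 18.2% and 18.7% passed in the first and second *Nrde2*-KO experiments, 55.9% in *Mtrex*-KO, 7.49% in *Nrde2-d200* and 27.8% in *Nrde2*-KO with CHX.

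The primitive endoderm list summed to 7.21 to 28.8 CPM in RNA-seq, with *Gata4* the most abundant in most libraries, and in Ribo-seq to 5.22 and 4.27 in WT and 14 and 12.2 in KO. The trophectoderm list, led by *Tfap2c*, summed to 11 to 66.4 in RNA-seq, the highest library being a *Mtrex*-KO one (66.4 and 45.2), and to 30.7 to 36.4 in Ribo-seq. The fibroblast list, led by *Pdgfrb* in all but *Mtrex*-KO replicate 1 (*Col1a1*, 1.81 CPM), summed to 4.76 to 35.9 in RNA-seq, with *Lum* and *Dcn* often at 0. It was at 16.1 and 15.9 in *Mtrex* WT and 5.02 and 4.76 in *Mtrex*-KO, and in Ribo-seq at 15.1 and 13.7 in WT and 35.2 and 33 in KO. In the first *Nrde2*-KO experiment, where 18.2% of all genes passed, 3 of 10 stem cell genes passed as lower. There 2 of 5 tested primitive endoderm and 2 of 4 trophectoderm genes passed as higher, and 0 of 3 fibroblast genes passed with limma. Of these 3 fibroblast genes 1 was at an unadjusted p under 0.05, as were 6161 of all 14889 genes. In *Mtrex*-KO, where 55.9% of all genes passed, 4 of 10 stem cell genes passed as lower, 3 of 5 and 3 of 4 genes of the next lists as higher, and of 3 fibroblast genes 1 as higher and 2 as lower. In Ribo-seq 2 of 4 tested primitive endoderm, 1 of 3 trophectoderm and 2 of 3 fibroblast genes passed as higher, and of 10 stem cell genes 1 passed as higher and 3 as lower, where 25.2% of all genes passed. In the *Mtrex*-KO libraries 72.08% and 82.68% of reads lay in genes, and the scaling factors were 0.681 and 0.828, against 83.56 to 92.11% and 0.9202 to 1.145 in the other RNA-seq libraries. The chi-square per gene between the 2 *Mtrex*-KO libraries was 87 and Pearson r of log2 values 0.993, against 5.22 to 37.9 and at least 0.997 in the other RNA-seq groups.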

How the data were processed

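RNA-seq (28 libraries) and Ribo-seq (4 libraries) of mouse embryonic stem cells were analysed, with 2 libraries in each group as the labels number them. The 16 BCLIP samples of the series were not analysed here. The deposited tables hold CPM per gene, which the authors made, per the submitters' notes, by aligning reads with STAR 2.7.3a and counting with featureCounts; the notes also name STAR 2.7.0a, bcl2fastq 1.17 and HiC-Pro 2.9.0. Of 55335 gene identifiers, 55154 matched GENCODE M21 and 181 did not. The genes and the lists were chosen with earlier results of these data known.

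Dividing each library's CPM by the value of a single read, taken from its smallest steps, gave values within 0.1 of a whole number for 100% of entries, the largest deviation being 0.000407 (RNA-seq) or 4.6e-05 (Ribo-seq). The recovered reads in genes numbered 28683644 to 36272309 in RNA-seq (72.08 to 92.11% of the total that CPM refers to) and 3475051 to 5035940 in Ribo-seq (61.41 to 66.82%). Median-of-ratios scaling factors were computed over all 28 RNA-seq libraries and over the 4 Ribo-seq libraries. Fits used log2 of normalized CPM plus 0.25, genes whose mean reached 0.5 CPM, limma 3.58.1 (R 4.3.3) and an adjusted p below 0.01 over all genes tested. The recovered reads were also fitted with edgeR 4.0.16, which passed 2733 genes in the first *Nrde2*-KO comparison where limma passed 2716, and with DESeq2 1.42.0, with minimum reads over the libraries of 200, 80, 10 or 160. The joint fit of Ribo-seq and RNA-seq puts assay and experiment in the same term. The code was tested on simulated data.

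Other alternatives were pseudocounts of 0.1 and 1, no filter, a filter at 1 CPM, CPM as deposited, a term for replicate number, the compared groups alone, RNA-seq of the second experiment, and leaving out each library in turn. Chosen after seeing the data were the set of libraries over which scaling factors were computed, the DESeq2 minimum of 80 reads for the joint fit, the longest coding transcript as main transcript and the limit of 5 of 9 bases for splice sites.

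All 10 genes are given in every comparison, those short of the threshold by value or range. Of 4 lists of related genes, counts are given, and by name those with an absolute log2 fold change above 1, or otherwise the 2 largest among passed genes, at most 6 a comparison. Genes of like pattern had a mean reaching 5 CPM and the highest Pearson r over the 28 libraries, 3 for *Nrde2* and *Mtrex* and 1 for each other gene. Marker lists were stem cell, 2-cell-like, primitive endoderm, trophectoderm and fibroblast genes.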

Additional observations from a re-analysis of the deposited data

Results flagged for a closer look

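For 3 values the effect of *Nrde2*-KO differed between settings in a test of the difference itself. For *Nrde2* RNA, the effect with CHX minus that without CHX was 1.52 on the log2 scale (limma, adjusted p = 9.5e-07), and it was 1.47 to 1.58 under every alternative tried. The level with CHX was 244 and 226 CPM in WT and 259 and 250 in KO, and without CHX 53.6 and 52.2 in WT and 20 and 19.7 in KO.

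The Ribo-seq effect minus the RNA-seq effect was −1.12 for *Nrde2* (limma, adjusted p = 0.0042) and −0.53 for *Srrt* (limma, adjusted p = 0.0028). Both calls were lost with CPM as deposited and with the RNA-seq of the second experiment. The cause of the 3 differences was not tested. No test for a library far from the others was run on these groups of 2 libraries.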

How the results depend on the processing

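With pseudocounts of 0.1 and 1, 170 of 170 and 169 of 170 values kept their direction and side of the threshold. The same held for 160 with no filter, 169 with a filter at 1 CPM, 168 with the replicate block, 157 with edgeR, 161 with DESeq2, 124 with CPM as deposited, 137 of 150 with the compared groups alone, 6 of 10 with RNA-seq of the second experiment, and 706 of 840 with 1 library left out. Calls were lost in 10 values with no filter, 17 with CPM as deposited (*Srrt* in *Mtrex*-KO, which also turned direction, among them), 9 with the compared groups alone and 57 with 1 library left out, where the lone library of a group is assumed to vary like the others. A further 26 values with CPM as deposited and 75 with 1 library left out changed sign without passing either way.

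Counts of the 10 genes that passed moved as follows, with the share of all genes that passed under the same setting in brackets. In the first *Nrde2*-KO experiment, 4 passed with the compared groups alone (26.1%). In *Nrde2-d200*, 1 passed with a filter at 1 CPM (8.4%), 1 with the replicate block (9.07%), 1 with edgeR (7.56%), 1 with DESeq2 (9.53%) and 2 with the compared groups alone (14.7%). In *Mtrex*-KO, 2 passed with the compared groups alone (34.5%), and *Srrt* turned to −0.0914 with CPM as deposited. In *Nrde2*-KO with CHX, 1 passed with no filter (6.94%) and 1 to 2 with 1 library left out (13.2 to 22.6%). In *Ccdc174-dTAG* with CHX, 0 passed with no filter (limma, 0.955%), 1 with the replicate block (7.31%), 1 with the compared groups alone (6.67%) and 0 to 1 with 1 library left out (2.65 to 4.85%).

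In Ribo-seq, 2 passed with CPM as deposited (19.3%). For the Ribo-seq effect minus the RNA-seq effect, 0 passed (limma) with CPM as deposited (3.4%), 0 with RNA-seq of the second experiment (4.38%) and 0 to 2 with 1 library left out (3 to 4.79%). For CHX against none in *Ccdc174* WT, 5 passed with no filter (20%), 3 with CPM as deposited (47.7%) and 4 to 6 with 1 library left out (38.6 to 40.2%), and in *Ccdc174-dTAG* 4 to 6 passed with 1 library left out (38.2 to 45.2%). The cause was not tested.

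Libraries share only a replicate number. Correlations of deviations between libraries of the same number were 0.121 to 0.422 in 7 of 9 comparisons and −0.0333 and −0.0256 in the other 2, and whether the numbers mark pairs cannot be told from them. Depth limits most the Ribo-seq of *Nrde2* in KO cells, at 2.34 and 3.25 CPM in libraries of 3475051 and 4540761 reads in genes, and in RNA-seq *Pabpn1*, at 4.64 to 26.3 CPM.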
